A study of Mus musculus with 12 samples.

Results

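The peaks described here are the strong distal elements of reprogramming fibroblasts that lost most of their accessibility when Prox1 was added. They were chosen by 3 conditions on a table of 176680 ATAC-seq peaks: a level of at least 7 with GFP, a level at least 1.5 lower with Prox1, and a window more than 1 kb from every transcription start site of the GENCODE M21 annotation. Levels are log2 mean normalised reads, so 7 stands for 128 reads and a difference of -1.5 for a 2.83-fold fall. The rule kept 7580 members, which were 4.29% of all peaks and 11.7% of the 64645 strong distal peaks. Over all peaks, 6.35% had a difference of -1.5 or lower. The share was 3.62% among weaker distal peaks and 2.31% among strong peaks at start sites.

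ATAC-seq measures accessibility by where the transposase Tn5 can cut chromatin and tag it for sequencing. All cells were wild-type (WT) primary fibroblasts of C57BL/6N mouse embryos at E13.5, cultured with doxycycline and collected on day 2. Both arms carried lentiviral rtTA, the doxycycline-dependent activator, and the 4in1 vector (LV.4TF), a cassette of transcription factors that reprograms fibroblasts towards hepatocytes and whose members the sample labels do not name. One arm, 4in1_GFP_OE, received tetO-GFP in addition, and the other, 4in1_Prox1_OE, received tetO-FLAG-mmProx1. Each arm had 3 libraries, and the series holds 12 libraries in 4 groups. The table gives 1 mean per arm and no value per library, so a difference has no error here, none was tested here, and the depth of a library is unknown. Cell mixture and accessibility per cell cannot be told apart in such bulk libraries, and neither the share of transduced cells nor fibroblast markers could be checked in these values.

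Distal elements are stretches of DNA away from promoters where transcription factors gather and act on genes at a distance. In fibroblasts many of them are held open by AP-1, dimers of FOS and JUN proteins that bind TGACTCA, together with TEAD proteins, the DNA-binding partners of YAP and TAZ, whose core site is GGAATG. PROX1 is a homeodomain factor of the Prospero type, found in hepatocytes and lymphatic endothelium, known as a repressor in the liver, and its described site is a palindrome with arms close to TAAGAC or CAAGAC. CTCF, a zinc-finger protein at insulators and chromatin loop anchors, marks a different class of distal element.

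The sequences of 7 members and 2 comparison peaks follow, chosen by level, difference and motif content, and 2 members were added after frequent words of 6 letters had been seen. These are the arm words TAAGAC and CAAGAC, the palindrome CTTAAG and the word CTCAAG. All are plus-strand sequence of GRCm38.p6, the assembly of mm10. In members, capitals mark AP-1 sites (TGACTCA or TGAGTCA) and the 4 words on either strand. The members with the largest falls that hold an AP-1 site come first. In the first of them, an AP-1 site, 2 arm words and CTTAAG lie within 1 window.
chr5:111855445-111855645: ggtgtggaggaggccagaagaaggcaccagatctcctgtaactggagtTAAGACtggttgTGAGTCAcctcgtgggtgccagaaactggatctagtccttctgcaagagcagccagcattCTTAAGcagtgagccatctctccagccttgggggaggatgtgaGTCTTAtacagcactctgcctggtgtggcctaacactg
chr1:177470219-177470419: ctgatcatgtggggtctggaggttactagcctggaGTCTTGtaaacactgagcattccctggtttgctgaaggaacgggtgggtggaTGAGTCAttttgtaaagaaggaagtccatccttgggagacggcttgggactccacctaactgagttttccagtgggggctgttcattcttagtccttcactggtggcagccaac
chr11:22494775-22494975: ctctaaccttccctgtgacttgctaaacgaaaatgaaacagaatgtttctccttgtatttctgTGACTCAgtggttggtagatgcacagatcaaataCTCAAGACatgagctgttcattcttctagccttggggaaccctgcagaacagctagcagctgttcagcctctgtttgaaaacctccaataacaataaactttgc
chr1:118325269-118325469: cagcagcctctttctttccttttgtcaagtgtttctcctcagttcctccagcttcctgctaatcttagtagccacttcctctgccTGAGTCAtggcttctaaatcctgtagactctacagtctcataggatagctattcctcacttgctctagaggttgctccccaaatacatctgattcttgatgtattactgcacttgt

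A member with one of the highest levels before Prox1 is shown next. It lies in an intron of Smyd3, a lysine methyltransferase gene, and holds a TEAD site but no AP-1 site and none of the 4 words.
chr1:179041996-179042196: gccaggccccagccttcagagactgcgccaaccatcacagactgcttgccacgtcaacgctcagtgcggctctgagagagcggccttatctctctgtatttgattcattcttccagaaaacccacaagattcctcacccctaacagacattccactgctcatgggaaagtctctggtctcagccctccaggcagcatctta

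Windows with 3 or more AP-1 sites made up 0.24% of members and 0.22% of the strong distal peaks that are not members. The highest number of AP-1 sites in a member was 3, held by 18 members, and 2 of these with large falls are shown. The first lies in an intron 9.65 kb from the start of Ccdc54, and the second is an intergenic window assigned to Klf6, a zinc-finger factor gene.
chr16:50600805-50601005: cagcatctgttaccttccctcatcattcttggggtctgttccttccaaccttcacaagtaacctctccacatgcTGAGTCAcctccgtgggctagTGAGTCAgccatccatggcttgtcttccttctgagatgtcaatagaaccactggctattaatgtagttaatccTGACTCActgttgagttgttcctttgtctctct
chr13:6089804-6090004: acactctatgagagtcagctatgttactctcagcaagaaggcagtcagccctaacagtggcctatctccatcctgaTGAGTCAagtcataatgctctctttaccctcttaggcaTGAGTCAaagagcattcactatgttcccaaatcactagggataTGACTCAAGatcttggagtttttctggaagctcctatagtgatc

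The 2 members shown for the number of these 4 words hold 6 and 5 matches. In the first window, CTTGAG and an AP-1 site overlap, which is why the 2 kinds of match were also counted apart from each other. That window is also one of the 55 members with a CTCF match.
chr19:29821074-29821274: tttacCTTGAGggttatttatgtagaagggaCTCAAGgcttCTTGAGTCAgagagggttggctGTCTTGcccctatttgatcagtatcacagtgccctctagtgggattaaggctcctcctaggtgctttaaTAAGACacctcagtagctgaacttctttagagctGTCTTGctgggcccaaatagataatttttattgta
chr13:31207800-31208000: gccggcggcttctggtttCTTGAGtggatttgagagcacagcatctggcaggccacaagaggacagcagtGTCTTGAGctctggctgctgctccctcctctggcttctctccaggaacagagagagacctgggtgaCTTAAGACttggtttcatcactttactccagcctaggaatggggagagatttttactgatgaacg

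For contrast, 2 strong distal peaks whose difference lay within 0.25 of 0 are shown, with their CTCF match in capitals. They are the highest of their class with such a match, at 850 and 663 reads with GFP, and neither holds an AP-1 site or any of the 4 words.
chr7:73618329-73618529: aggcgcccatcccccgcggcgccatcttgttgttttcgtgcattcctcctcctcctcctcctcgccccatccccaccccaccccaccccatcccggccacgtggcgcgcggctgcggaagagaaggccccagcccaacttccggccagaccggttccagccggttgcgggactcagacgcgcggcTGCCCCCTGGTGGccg
chr7:101310739-101310939: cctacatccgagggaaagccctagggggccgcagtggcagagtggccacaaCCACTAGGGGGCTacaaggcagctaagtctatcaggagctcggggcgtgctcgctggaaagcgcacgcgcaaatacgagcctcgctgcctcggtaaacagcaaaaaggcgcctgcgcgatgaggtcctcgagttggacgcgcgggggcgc

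Members began at ordinary levels for strong distal peaks and ended well below them. Their median level was 218 mean reads with GFP (quartiles 167 and 298, range 128 to 841) and 67.4 with Prox1 (quartiles 51.7 and 92.1, range 24.1 to 267). The other 57065 strong distal peaks started at a median of 208 reads and stood at 139 with Prox1. Members thus kept a median of 31.7% of their GFP level, and the deepest kept 15.1%, while the others kept a median of 61.3%. These values chose the members and are given as a description only.

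Most members sat close to the threshold. The median difference of members was -1.66 (quartiles -1.79 and -1.57, lowest -2.73), and 438 of them (5.78%) were at -2 or lower. With Prox1, 606 members (7.99%) were still at a level of 7 or more. Over all peaks the median difference was -0.42 and over all strong distal peaks -0.82, and how the libraries were scaled could not be checked. Relative to the median of all peaks, 809 members were lower by 1.5 or more.

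**Figure D1:**
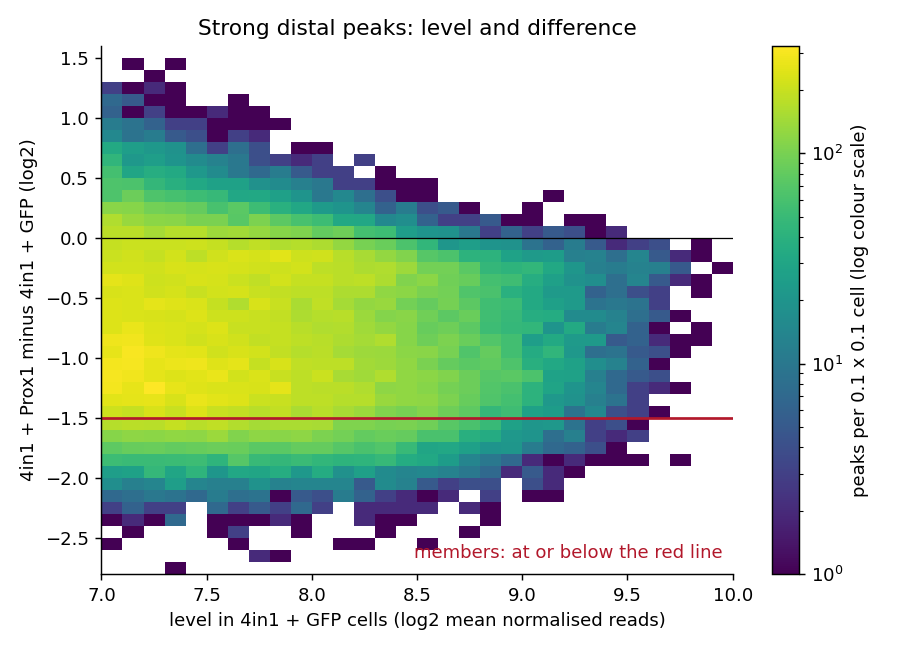
Level with GFP (log2 mean normalised reads, horizontal) against the difference with Prox1 (log2, vertical) for the 64645 strong distal peaks, with colour giving the number of peaks in each cell on a log scale. The 7580 members lie at or below the red line at -1.5, and their highest level with GFP is 9.72.

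The share of members depended little on how strong a peak was, except at the top. It was 10.5% of strong distal peaks at levels from 7 to 7.5, 12.2% from 7.5 to 8, 13.2% from 8 to 8.5 and 12.7% from 8.5 to 9. It fell to 8.997% from 9 to 9.5 and to 3.33% (6 of 180 peaks) at 9.5 and over. The strongest elements were thus seldom members.

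Of the 5 strongest members, 4 are described here. The Smyd3 window shown above fell from 769 to 267 reads, a difference of -1.53. The other three lay 175 kb from Trib1, a pseudokinase gene, in an intron of Sh3tc2, and 175 kb from Mtdh, with differences of -1.61, -1.83 and -1.63. The last has the same nearest start site of any kind, that of Gm49089 on chromosome 15, as the member with the largest fall.

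That member, chr15:33857226-33857426, fell from 161 to 24.4 reads, a difference of -2.73. It is intergenic and 169 kb from Tspyl5, its nearest protein-coding start. The second, chr15:54091372-54091572, fell from 223 to 34.5 reads and lies 187 kb from Tnfrsf11b, which encodes osteoprotegerin, a decoy receptor for the bone-resorbing cytokine RANKL. Neither holds an AP-1 site. The next 4 are the windows shown first among the sequences, with differences from -2.62 to -2.52. The remaining 4 of the lowest 10 lay in introns of Spata6, Nedd9, Lpar1 and Cep135, with differences from -2.51 to -2.48. Nedd9 encodes a scaffold of focal adhesions and Lpar1 a receptor for lysophosphatidic acid. Of these 10 members, 6 held an AP-1 site and none a CTCF match.

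At the edges of the rule the values ran on without a gap. The 3 members nearest the difference threshold were at -1.5, -1.50003 and -1.50004, in an intron of Tg and in windows assigned to Ets1 and Shq1. The 3 strong distal peaks just outside it were at -1.49994, -1.49993 and -1.49987, assigned to Axin2, Amotl2 and Sptlc1. At the level threshold, 3 members assigned to Atp6ap1l, Gfra2 and Slc30a5 were at 128.02 to 128.04 reads, and 3 excluded peaks assigned to Optc, Mia2 and Foxq1 were at 127.94 to 127.99 reads. At the distance threshold, members lay 1010, 1014 and 1015 bases from a start site, and excluded peaks near Zfp760, Sgms1 and Pik3ca lay 999, 996 and 994 bases from one.

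The sequence of members differed from that of other strong distal peaks, a property the rule did not use. AP-1 sites were found in 46.0% of members, in 30.3% of the other strong distal peaks and in 16.5% of the 11108 steady peaks, those with a difference within 0.25 of 0. Across the 19 autosomes the share in members ran from 41.0% to 52.0%, and it exceeded the share in the other peaks on every one, by 10.7 to 23.4 percentage points. TEAD sites were in 28.8% of members, 22.9% of the others and 17.4% of steady peaks, again higher in members on all 19 autosomes. Together, 65.0% of members held an AP-1 or a TEAD site and 9.87% held both, against 46.9% and 6.31% of the others. Over all peaks, AP-1 sites were in 23.0% and TEAD sites in 20.1% of windows.

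CTCF matches were nearly absent from members. With 1 mismatch allowed, 0.73% of members (55 windows) held a CTCF match, against 12.1% of the others and 29.0% of steady peaks, and the members' share was lower on all 19 autosomes. No CTCF match was found in the 438 members at -2 or lower. The few matches in members also lay elsewhere in the window: 38.6% of them were within 20 bases of the centre, against 75.6% in steady peaks.

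The E-box CAGGTG, the site of the ZEB and SNAI repressors of epithelial genes, was in 4.71% of members, 10.0% of the others and 16.9% of steady peaks. Some CTCF sites contain these letters, so the count was repeated in windows without a CTCF match, where the shares were 4.60%, 8.23% and 12.9%. The SP and KLF site GGGCGG was in 2.65% of members against 6.47% of the others, and the ETS site CCGGAAG in 0.55% against 1.33%. GATA sites (AGATAA) were in 7.66% against 6.45%, but within quartiles of GC content the shares were close and changed order, from 9.66% against 9.85% in the lowest to 3.50% against 3.39% in the highest. The order turned for GGGCGG too in the third GC quartile, at 5.54% against 4.86%, while TEAD, CAGGTG, CTCF and the ETS site kept theirs in all 4. RUNX sites (TGTGGT) were at 21.5% against 19.8%, and on 4 autosomes members had the lower share. Shares of the E-box CAGATG (18.5% and 18.8%), the homeobox core TAATTA (3.01% and 2.88%), the SOX site ACAATG (11.1% and 10.3%) and the FOX site TGTTTAC (2.39% and 2.68%) were close to those of the other peaks.

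**Figure D2:**
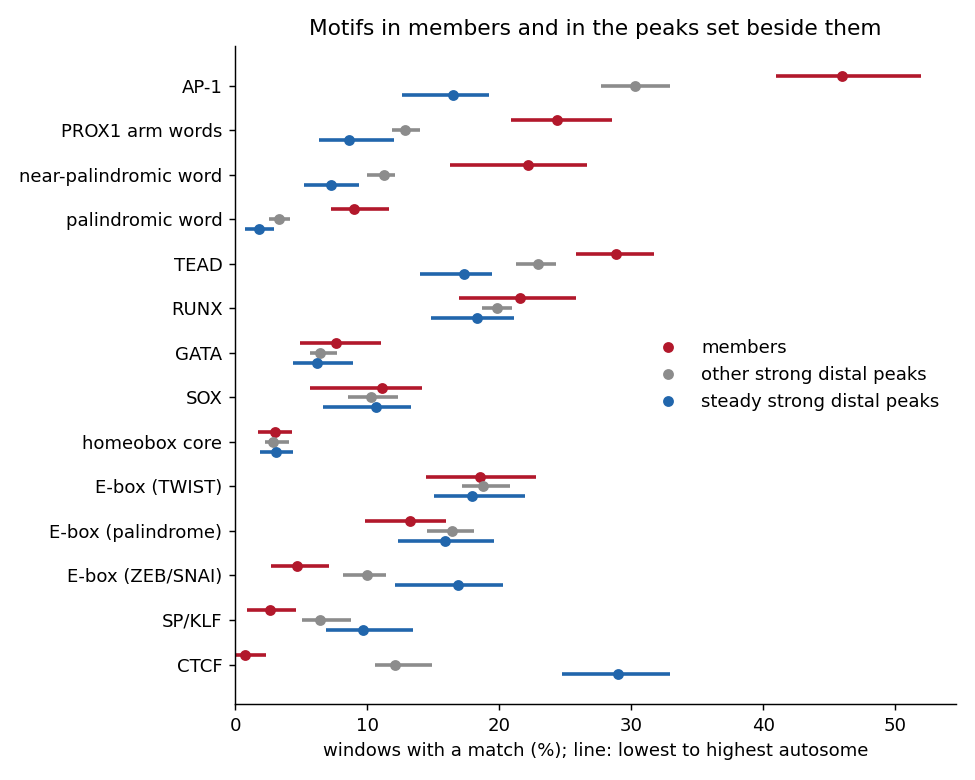
Share of windows with a match (horizontal, percent) for 14 motifs or words in members, other strong distal peaks and steady peaks, as points, with lines from the lowest to the highest of the 19 autosomes. AP-1 stood at 46.0% in members and 16.5% in steady peaks, and CTCF at 0.73% and 29.0%.

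The full palindrome of PROX1, with 1 mismatch allowed, was rare. It was found in 49 members (0.65%), in 0.31% of the other strong distal peaks and in 0.25% of steady peaks, and the members' share was the higher on 14 of 19 autosomes. The member with this match and the largest fall lay in an intron of Sntb2 on chromosome 8 and went from 304 to 61.3 reads. The next was an intergenic window on chromosome 10 with 2 matches, from 187 to 39.5 reads. Another lay 11.01 kb from Plau, the gene of urokinase, and went from 166 to 38.8 reads.

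To look beyond named motifs, every word of 6 letters was counted on both strands, and shares in the other peaks were weighted to the members' mix of GC quartiles. Of 1867 words present in at least 1000 strong distal peaks, CTTAAG had the highest ratio, in 9.04% of members against 3.67% of the other peaks at the same GC mix, a ratio of 2.46. CTCAAG followed (22.2% against 11.3%, ratio 1.96), and then TAAGAC (11.7% against 6.01%, ratio 1.95), TAAGGA (ratio 1.91) and TAAGAA (ratio 1.88). CAAGAC was 12th, with a ratio of 1.76. All 20 words with the highest ratios contained AAG on one strand, which 13.5% of all 1867 words do. TGACTC and TGAGTC, the 6-letter parts of the AP-1 site, ranked 80th and 75th by this ratio, although they were the more frequent, in 54.0% and 51.9% of members. The 20 words with the lowest ratios all contained CG, led by CGCGCC at 0.11% of members against 0.84% of the others at the same GC mix, a ratio of 0.13.

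TAAGAC and CAAGAC have the letters of the arms of the PROX1 palindrome, and CTTAAG is a palindrome of CTT and AAG. They were singled out after the word counts were seen, and matches can overlap, as TAAGAC does with CTTAAG and CTCAAG with an AP-1 site. An arm word was in 24.4% of members (autosomes 20.9% to 28.5%), 12.9% of the other strong distal peaks and 8.65% of steady peaks. CTTAAG was in 9.04%, 3.31% and 1.77%. Both were more frequent in members on all 19 autosomes. Taking arm words, CTTAAG and CTCAAG together, 46.0% of members held at least 1, against 24.7% of the others and 16.5% of steady peaks. Over all peaks an arm word was in 12.8% and CTTAAG in 3.44% of windows.

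The same letters in reverse order served as a check of base composition. CAGAAT or CAGAAC was in 30.0% of members and 27.8% of the others, a ratio of 1.08 beside 1.89 for the arm words. GAATTC, the reversal of CTTAAG, was itself more frequent in members, at 10.1% and 6.69%, a ratio of 1.51 beside 2.73 for CTTAAG, and it was so in all 4 quartiles of GC content. Within each quartile of GC content the arm words remained more frequent in members, from 26.6% against 13.9% in the lowest quartile to 19.7% against 10.3% in the highest. CTTAAG was in 10.4% against 4.04% in the lowest and in 6.04% against 2.20% in the highest.

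Members with and without an AP-1 site held these words at similar shares. Arm words were in 23.3% of members with an AP-1 site and in 25.3% of members without one, and CTTAAG in 8.86% and 9.19%. Windows with an AP-1 site, an arm word, CTTAAG or CTCAAG made up 71.2% of members, 47.4% of the other strong distal peaks and 30.6% of steady peaks.

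The shares of AP-1 and of these words are also given along the difference itself, a description on the scale that chose the members. Unlike AP-1, the words were picked after their high ratios in members were seen, so part of their rise was set by that choice. The last bin, at -2 or lower, held 438 peaks. The share with AP-1 was 20.6% in strong distal peaks above 0, 32.3% from -1 to -0.5 and 41.0% from -1.5 to -1, and then levelled off at 46.1% from -2 to -1.5 and 43.8% at -2 or lower. The share with an arm word rose through every step, from 6.19% above 0 to 16.7% from -1.5 to -1, 24.0% from -2 to -1.5 and 30.1% at -2 or lower. CTTAAG went from 0.99% to 4.72%, 8.70% and 14.6% in the same steps. CTCF went from 20.8% above 0 and 25.8% from -0.5 to 0 down to 1.69% from -1.5 to -1.

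**Figure D3:**
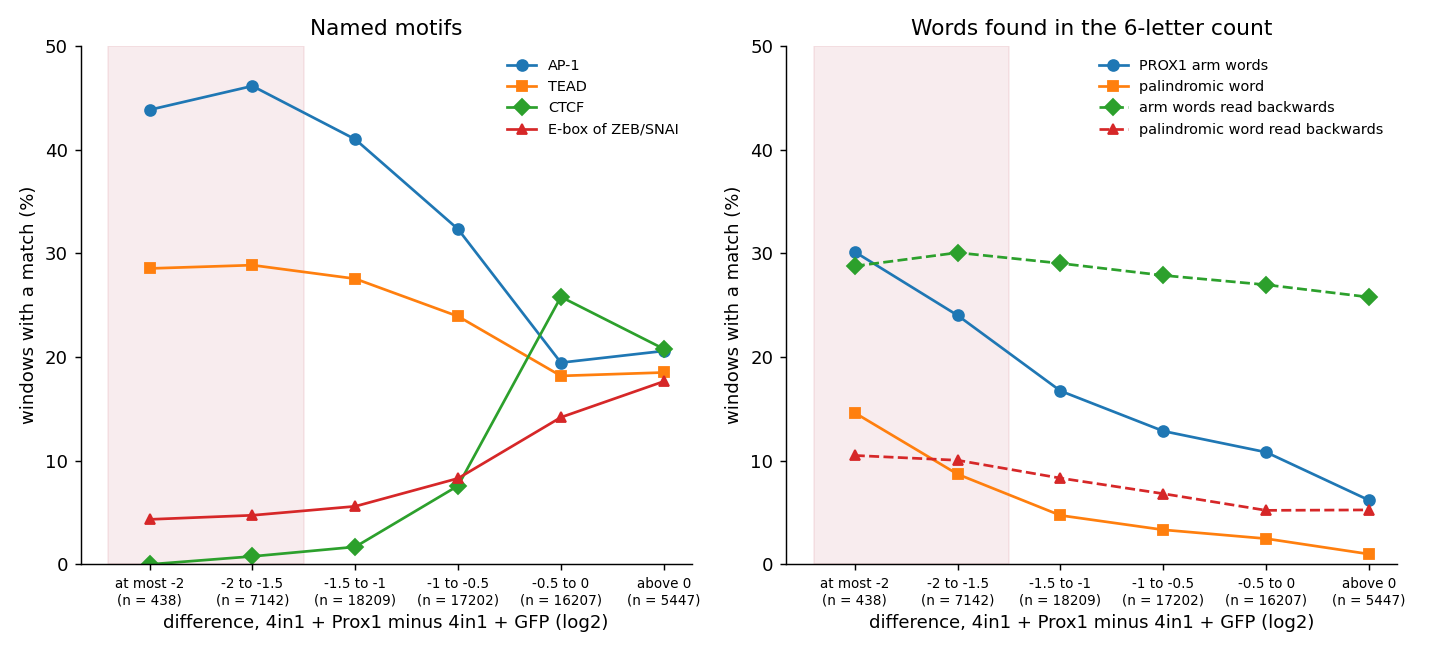
Share of strong distal peaks with a match (vertical, percent) in 6 bins of the difference (horizontal, log2, with the number of peaks), for 4 named motifs on the left and for 2 words and their letters in reverse order on the right, the members shaded. AP-1 stands at 46.1% from -2 to -1.5 and at 43.8% at -2 or lower. The arm words, named for their letters and picked after their high ratios in members were seen, reach 30.1%. Their reversal stays between 25.8% and 30.1%. The reversal of CTTAAG goes from 5.25% above 0 to 10.5% at -2 or lower, where CTTAAG goes from 0.99% to 14.6%.

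Read the other way, 16.8% of the 20787 strong distal peaks with an AP-1 site were members, beside 11.7% of all strong distal peaks. The share was 20.1% of those with an arm word, 20.6% of those with CTCAAG, 26.6% of those with CTTAAG, 21.6% of the 227 with the PROX1 palindrome and 0.79% of those with a CTCF match. Most peaks with any of these matches were therefore not members.

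AP-1 sites lay near the window centre in members as they did elsewhere. Of the AP-1 sites in members, 40.7% were within 20 bases of the centre, beside 39.4% in the other strong distal peaks and 41.7% in steady peaks. The arm words had no such peak: 20.4% of those in members were within 20 bases of the centre, against 17.3% in the others and 13.04% in steady peaks. In steady peaks they were thinned out at the centre, and in members they were not.

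**Figure D4:**
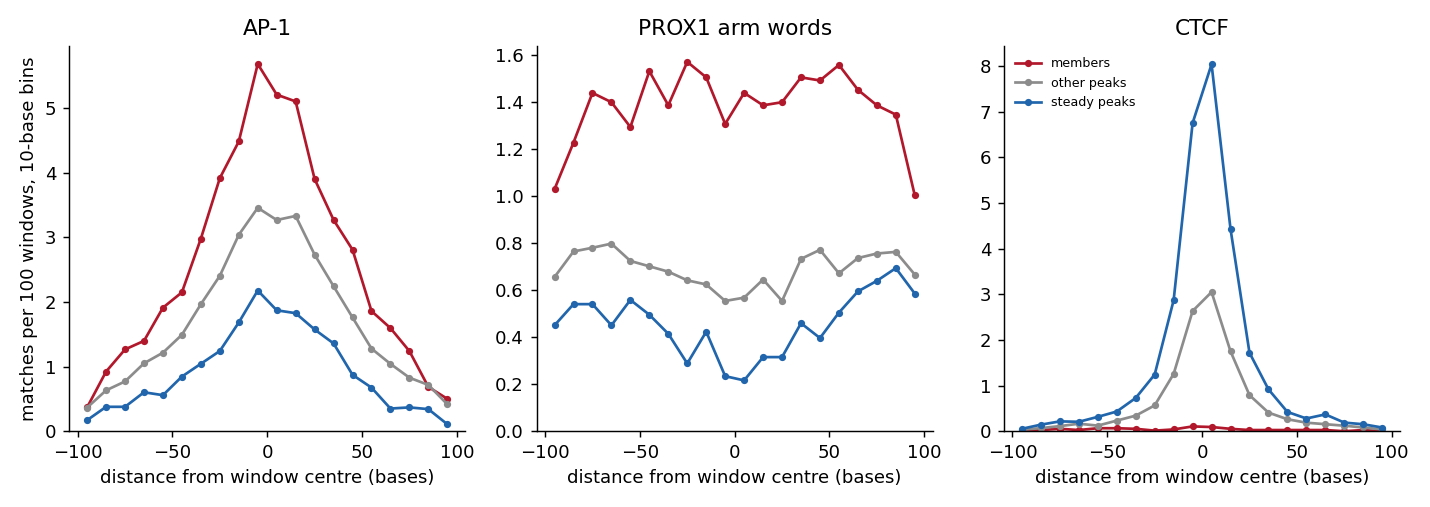
Matches per 100 windows (vertical) by distance of the match from the window centre (horizontal, bases, bins of 10). AP-1, the arm words and CTCF are shown in members, other strong distal peaks and steady peaks, and vertical scales differ. AP-1 matches rise to 5.69 per 100 members beside the centre, arm words lie evenly across members, and CTCF reaches 8.04 per 100 in steady peaks.

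Base composition moved with these shares. Members had a median GC content of 45.3%, against 48.3% in the other strong distal peaks and 49.8% in steady peaks, and the autosome medians of members ran from 44.3% to 45.8%. No CpG at all was found in 23.2% of members and 13.1% of the others. Members made up 17.8% of strong distal peaks in the lowest GC quartile, 14.9% and 9.94% in the middle quartiles and 3.94% in the highest. The AP-1 share of members exceeded that of the other peaks in every GC quartile (42.2% against 33.6% in the lowest, 45.5% against 23.1% in the highest). It did so in every band of level too, from 42.6% against 27.0% at 7 to 7.5 to 55.6% against 41.2% at 9 and over. The part of GC content in the difference itself was not tested.

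Medians of the difference among members are held near the threshold by the rule, so they are given as values only. The median difference was -1.65 in members with no AP-1 site, -1.66 with 1 and -1.66 with 2, and -1.755 in the 18 members with 3. It was -1.65, -1.68 and -1.71 in members with 0, 1 and 2 or more arm words, and -1.69 with CTTAAG. It was -1.752 in the 49 members with the PROX1 palindrome. Members with more AP-1 sites were stronger before Prox1, with medians of 211, 223 and 259 reads for 0, 1 and 2 sites.

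Members lay farther from start sites than the other strong distal peaks, though over 50% were within genes. Their median distance to the nearest start site of any kind was 15.3 kb, against 11.8 kb for the other strong distal peaks and 9.91 kb for steady peaks. To the nearest protein-coding start it was 33.4 kb (autosome medians 20.7 to 52.6 kb), 21.2 kb and 16.4 kb. More than 100 kb from any protein-coding start lay 25.3% of members, 17.0% of the others and 12.4% of steady peaks. Introns held 52.0% of members, intergenic sequence 44.0% and exons 4.01%, the last against 6.43% of the others and 9.25% of steady peaks. Windows that were mostly repeat sequence made up 4.80% of members, 3.37% of the others, 4.29% of steady peaks and 5.28% of all peaks.

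Members occurred on all autosomes and the X chromosome. Their share of strong distal peaks was 11.7% ± 1.22 (mean ± SD over the 19 autosomes), from 9.25% on chromosome 11 to 14.4% on chromosome 13, and 15.3% on the X chromosome.

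Members stood near one another somewhat more often than strong distal peaks in general. The next strong distal peak was itself a member for 17.3% of members and 11.1% of non-members when it lay 1 to 5 kb away, and for 15.0% and 11.4% when it lay 10 to 50 kb away. At 50 to 500 kb the shares were 14.4% and 11.7%, so the excess was not confined to close neighbours. Another member lay within 50 kb of 44.7% of members. Joined at gaps up to 50 kb, members formed 5572 groups, of which 4188 were single members and 139 held 4 or more. The largest group, with 11 members among 19 strong distal peaks over 142 kb, lay on chromosome 1 beyond Fn1, the fibronectin gene, from position 71880594 to 72022917, and its differences had a median of -1.55 and a lowest value of -2.26. The next, with 10 members over 211 kb, covered Ddr2, which encodes a collagen receptor, and Uap1. Another, with 9 members, covered the region of Prkch and Hif1a, the gene of the hypoxia-inducible factor.

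Peaks that are not members were lower near one. Distal peaks that were neither members nor steady had a median difference of -0.76 within 1 kb of a member (526 peaks), -0.74 at 1 to 5 kb, -0.60 at 10 to 50 kb and -0.45 at 100 to 500 kb. Around steady peaks the median was -0.21 within 1 kb and -0.54 at 1 to 5 kb. Farther out it was -0.45 at 5 to 10 kb and fell with distance, to -0.49 at 10 to 50 kb, -0.52 at 50 to 100 kb and -0.58 at 100 to 500 kb. The median of all such distal peaks was -0.52. Start-site peaks at 1 to 5 kb from a member had a median of -0.35, against -0.20 at the same distance from a steady peak and -0.22 for all start-site peaks of this kind. These differences come from the same contrast as the rule and from the same libraries.

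Members were assigned to the nearest protein-coding start, which does not show that they act on that gene. By this assignment 4151 genes had at least 1 member, 2519 of them exactly 1. The 235 genes with 5 or more, picked by that number, took 20.01% of all members and 6233 of the 64645 strong distal peaks. The 14 genes with the most members, ties included, were led by Myc, with 16 members among 63 strong distal peaks, and Zeb2, with 15 among 43. Both encode transcription factors, Myc a driver of growth and Zeb2 a repressor of epithelial genes. Members of Myc lay 136 to 711 kb from its start, with GFP levels of 132 to 384 reads and Prox1 levels of 39.0 to 116 reads, and 6 of the 16 held an AP-1 site.

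Genes of the matrix and of secreted signals were among these 14. Thbs1, the gene of the matrix protein thrombospondin 1, had 13 members among 32 strong distal peaks (40.6%). Inhba, which encodes a subunit of activin, had 13 among 54, and Bmper, which encodes a secreted binder of BMPs, had 11 among 40. Pappa, which encodes a protease that releases insulin-like growth factors, had 11 among 35. Cdh11, the gene of a mesenchymal cadherin, had 11 members among 27 strong distal peaks, the highest share of the 14 at 40.7%. The transcriptional regulators, Klf6 and Cited2, had 13 each, among 48 and 50 strong distal peaks. The number of members with an AP-1 site ran from 2 of 11 at Gm9747 and 3 of 11 at Bmper to 10 of 13 at Klf6. The others were Kirrel3 with 14 among 44, Pde4d with 14 among 82, the lowest share of the 14 genes at 17.1%, Nbea with 12 among 30, Adgrl3 with 11 among 36 and Gm9747 with 11 among 35. Kirrel3 and Adgrl3 encode adhesion proteins of neurons and Pde4d a cAMP phosphodiesterase.

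Promoters of these genes, which the rule did not select, are given beside all strong distal peaks of the same gene. At Myc the strongest peak within 1 kb of the start went from 643 to 330 reads (-0.96), where its 63 strong distal peaks had a median of -1.09. At Thbs1 it went from 690 to 329 reads (-1.07), beside a median of -1.35. At Zeb2 it was at 378 and 377 reads (-0.0035), beside a median of -1.21. The other promoters of the 14 with such a peak ranged from -0.46 at Cdh11 to -0.08 at Nbea. Over the 214 genes with 5 or more members and a promoter peak, the median promoter difference was -0.30, against -0.25 with 3 or 4 members, -0.21 with 1 or 2 and -0.19 in genes with strong distal peaks but no member. Genes with 5 or more members had a median of 25 strong distal peaks and genes with none a median of 2, and the part of this number in the promoter values was not tested.

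**Figure D5:**
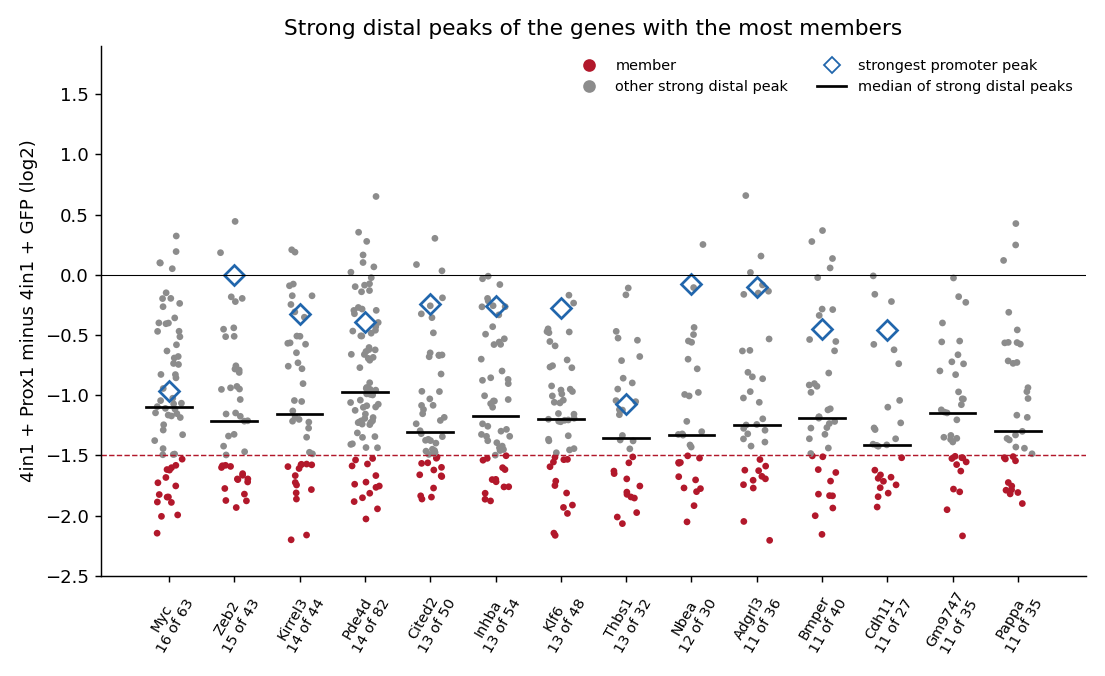
Difference with Prox1 (vertical, log2) of every strong distal peak assigned to the 14 genes with the most members (horizontal, with members of strong distal peaks), with members in red, other peaks in grey, the median as a black line and the strongest promoter peak as an open diamond where there is one. Promoters of Myc and Thbs1 stand at -0.96 and -1.07, and that of Zeb2 at -0.0035.

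Gene lists of the tissue and its alternatives gave shares on both sides of the 11.7% of all strong distal peaks. Fibroblast matrix genes had 59 members among 317 strong distal peaks (18.6%), at 16 of 26 genes. Thbs1 led with 13, followed by Fn1 and Tnc, the tenascin C gene, with 8 each. Dcn, the decorin gene, had the lowest value of that list, a member at chr10:97294141-97294341 that went from 207 to 42.2 reads (-2.30). Col1a1, the type I collagen gene, had 1 member among 15. With only start sites within 100 kb, the list had 33 of 226 (14.6%), beside 10.7% for all genes.

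Mesenchymal transcription factors had 61 members among 398 strong distal peaks (15.3%), among them 15 at Zeb2, 5 at Meis1 and 5 at Tbx18, and the lowest member was one of Meis1 at -2.24. Within 100 kb the share was 12.9%. The TGF-beta list had 44 of 318 (13.8%), with Inhba, Bmper and Tgfbr3, a co-receptor gene with 6, and within 100 kb it had 25 of 202 (12.4%). AP-1 subunit genes had 8 of 47 (17.0%), with 4 at Jun, and the lowest was a member near Batf3 (277 to 62.9 reads). TEAD and Hippo genes had 14 of 131 (10.7%), among them 2 at Ccn1, a YAP target, 1 of which went from 324 to 76.9 reads, and 3 at Tead1. Actin and smooth muscle genes had 19 of 181 (10.5%), with 4 at Mrtfa, which encodes a co-activator of SRF.

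Lists of other fates had members too. The neuronal list had 63 members among 355 strong distal peaks (17.7%, and 17.7% within 100 kb), with Slit2 (10) and Efnb2 (9), genes of guidance cues, foremost, and its lowest member in an intron of Sema3a at -2.18. Adipogenic regulators had 26 of 142 (18.3%, and 13.5% within 100 kb), with 9 at Klf4 and 8 at Ebf1. The Ebf1 member at chr11:44812446-44812646, in an intron 99.5 kb from the start, was the lowest member of any list and went from 434 to 78.9 reads (-2.46). Hepatocyte transcription factors had 15 of 108 (13.9%), 8 of them at Nr2f2, which is also expressed in mesenchyme, and within 100 kb 4 of 57 (7.02%). Hepatocyte plasma protein genes had 4 of 27 (14.8%), and 4 of 17 (23.5%) within 100 kb, all of them at Apob, the gene of apolipoprotein B. The lists differ in the number of peaks per gene, and the counts are descriptions without a test.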

How the data were processed

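ATAC-seq values of 6 libraries were used, 3 each of 4in1_GFP_OE and 4in1_Prox1_OE. The authors deposited log2 mean normalized read counts per group for 176680 windows, of which 176672 are 201 bases wide. Per the study's methods and the submitters' processing notes, reads were trimmed (Trimmomatic 0.38), aligned to mm10 (Bowtie2 2.3.4.3), cleaned and recalibrated for Tn5 bias (SAMtools 1.10, Picard 2.18.16) and counted with DiffBind 3.4.11. The methods name MACS2 as peak caller and the reporting summary Genrich, so the caller is uncertain, and for normalization the methods refer to the DiffBind vignette without spelling out the setting. Fold changes, p-values, FDR and the derived peak lists of the authors' own comparison were not used, and no value is given per library, so scaling, depth and replicate agreement could not be checked.

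The difference is the Prox1 minus the GFP log2 mean. Distances run from the window edge to 132666 start sites of the comprehensive GENCODE M21 annotation, and sequence came from GRCm38.p6, whose chromosomes contained all windows. Motifs were searched on both strands, with 1 mismatch for CTCF, PROX1 and HNF1 only, and overlapping matches of different motifs were all counted. Members were named by rule: the 10 lowest differences, the 5 highest GFP levels, 3 on each side of each threshold, the 12 genes with the most members plus ties, and the lowest member and leading gene of each of 10 gene lists. Some members that this rule names are not reported here. The members and lists were chosen with earlier results of these data known, and the 6-letter words and the palindrome matches named one by one were chosen after their values were seen. Word and distance searches were tested on simulated data. Tables were handled with pandas 2.3.3 and numpy 2.4.6 in Python 3.11.15, binomial routines with scipy 1.17.1, and plots with matplotlib 3.10.9.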

Additional observations from a re-analysis of the deposited data

How the results depend on the processing

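The selection sets the number of members, and the contrasts of 5 motifs or words with the other strong distal peaks kept their direction under all 10 alternative selections. The contrasts of the other motifs and of CTCAAG were not rerun under them. The arm words and CTTAAG were picked after their high ratios under the main selection were seen. The alternatives overlap that selection, so the direction for these words was largely set by that choice. The ratio of shares ran from 1.36 to 1.59 for AP-1, 1.22 to 1.30 for TEAD, 0.023 to 0.070 for CTCF, 1.81 to 2.09 for the arm words and 2.50 to 3.15 for CTTAAG. The start sites of the basic annotation and the alternatives for the words were added after seeing the data.

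With the difference threshold 0.25 nearer to 0 there were 16251 members, with AP-1 in 44.5%, CTCF in 0.98%, arm words in 21.4%, CTTAAG in 7.23% and another member within 50 kb of 67.5%. With it 0.25 lower there were 2334, with CTCF in 0.34%, arm words in 28.3%, CTTAAG in 11.7%, introns 50.5%, a median GC of 44.3% and another member near 18.7%. Relative to the median of all peaks there were 809, with AP-1 in 43.4%, CTCF in 0.25%, arm words in 29.3%, CTTAAG in 11.2%, introns 48.6%, a median GC of 43.8% and another member near 9.52%. A GFP level of 6.5 gave AP-1 in 44.3% and another member near 50.5%, and one of 7.5 gave 47.6%, 35.6% and introns 53.6%. Within 50 bases of the window centre, AP-1 was in 37.3%, TEAD in 19.5%, CTCF in 0.49%, arm words in 13.6% and CTTAAG in 4.89% of members. GGAATGT instead of GGAATG gave 12.5%. Limiting genes to starts within 100 kb lowered the members of 6 of the 10 gene lists by more than 1.5 times. The share with a neighbouring member depends on the number of members by construction, and for the other values the cause was not tested.

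No paired analysis was possible because values are deposited as group means, and for the same reason no replicate was left out. Shares over windows describe these windows and not the spread between cultures.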
